A study of Homo sapiens with 3 samples.

Results

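The hnRNP A, B and D family transcripts are those of HNRNPA0, HNRNPA1, HNRNPA2B1, HNRNPA3, HNRNPAB, HNRNPD and HNRNPDL. These are 7 hnRNP genes whose proteins carry a pair of RNA-binding domains of the kind first described in hnRNP A1. Members were found by the Ensembl identifier at the start of the cluster names in replicate 2 of an RBM17 eCLIP experiment. Clusters of replicate 1 and reproducible peaks were added when they lay on the same strand within the span of those replicate 2 clusters. By this rule the 7 genes, of 10872 genes with a replicate 2 cluster, held 185 of 119066 clusters in replicate 2, 234 of 137095 clusters in replicate 1 and 31 of the 866 reproducible peaks. All libraries came from K562, an established human chronic myelogenous leukemia line, for which the labels give no knockdown and no drug treatment. RBM17 was immunoprecipitated from ultraviolet-crosslinked cells with a mixture of a pair of rabbit antibodies in 2 eCLIP replicates, and 1 size-matched input was drawn from the mixture of lysate, antibody and beads before the washes. The study speaks of biological replicates, and the labels do not say whether they were grown as separate cultures.

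hnRNP proteins coat nascent transcripts in the nucleus and take part in splice site choice, RNA stability and export. The A, B and D family is known for its abundance and for regulating the splicing of its own pre-mRNAs, in several cases through exons or introns whose use sends the transcript to nonsense-mediated decay (NMD). RBM17, also called SPF45, is a spliceosomal protein that takes part in the recognition of 3’ splice sites and binds U2 snRNP-associated proteins. In eCLIP, the RNA fragments crosslinked to the protein are sequenced, stretches with more reads than their surroundings are called clusters, and the enrichment of each stretch is the log2 fold of its reads over those of the input. No reproducible peak in the deposited list had a log2 fold or a −log10 p under 3, and both limits were applied here to the clusters of replicate 1 as well.

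Depth was known for replicate 2 only, where a cluster held a median of 5 reads (lowest 3, highest 8215) and all intervals, each counted once, held 1336569. Replicate 1 was deposited as log2 folds and −log10 p over the input without reads. The erythroid identity of K562 was visible in the RNA, since all 7 of the erythroid marker genes examined (GATA1, TAL1, LMO2, HBG1, HBG2, HBZ and EPOR) had replicate 2 clusters, whereas 0 of the 3 lymphoid markers (CD3E, CD79A and MS4A1) did. There was no second condition and thus no test between samples. The 95% intervals beside percentages are exact binomial ones after Clopper and Pearson and hold the error of counting alone. Neighboring clusters of a gene are not independent.

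Positions of clusters and peaks are those of hg19. The hg38 annotation of GENCODE v44 describes the genes themselves, and no peak was laid on it. HNRNPA0 has a canonical transcript of 1 exon and hence no intron. The canonical transcripts of HNRNPA1, HNRNPA2B1 and HNRNPA3 have 11 exons each, that of HNRNPD has 9, and those of HNRNPAB and HNRNPDL have 8 each. NMD is the annotated fate of 35 of 49 transcripts of HNRNPA2B1, 18 of 84 of HNRNPA1, 6 of 18 of HNRNPD, 4 of 19 of HNRNPA3, 4 of 10 of HNRNPDL, 0 of 8 of HNRNPAB and 0 of 1 of HNRNPA0. The 5’ splice sites of the first introns are shown because the peaks of several members crowd the 5’ part of the gene. Each line gives the last 9 bases of exon 1 and the first 21 of intron 1 in hg38, 5’ to 3’ on the gene's strand, and the capitals mark the first 6 intron bases.
HNRNPA2B1 (chr7:26200551-26200580, - strand): gcgatggagGTAACGggtttgaaatcaatg
HNRNPA1 (chr12:54280814-54280843, + strand): aagtcagagGTGAGTtaggcgcgctttccc
HNRNPA3 (chr2:177212863-177212892, + strand): ggggaggagGTATTAgggggagagcggggg
HNRNPAB (chr5:178204732-178204761, + strand): ggcggcgagGTGAGCggcggccggcgggcg
HNRNPD (chr4:82373425-82373454, - strand): ggatgaaggGTGAGTaaggggcatcccagg
HNRNPDL (chr4:82429227-82429256, - strand): ggatgacggGTACCGcacgcttcttccccc

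The 6 spliced genes each carried a reproducible RBM17 peak, with 11 peaks in HNRNPA2B1, 8 in HNRNPA1, 4 in HNRNPDL, 3 each in HNRNPA3 and HNRNPD and 2 in HNRNPAB. HNRNPA0 had none. Over all genes with a replicate 2 cluster, 4.07% had a peak within their span. Among the 2379 genes with at least 100 replicate 2 reads, a number that all members but HNRNPA0 exceeded, 16.3% did. The 6 genes with a peak held 143 to 4355 reads, so a floor of 100 does not match their depth. The part of depth in these shares was not tested. Per kb of span, HNRNPA1 had 1.37 peaks, HNRNPA2B1 1.14, HNRNPDL 0.90, HNRNPAB 0.42, HNRNPA3 0.30 and HNRNPD 0.15, so HNRNPA1 and not HNRNPA2B1 led once the length of the span was taken into account.

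Replicate 2 held 8509 cluster reads in the 7 genes, 0.637% of the reads in all its clusters with each interval counted once (95% interval 0.623 to 0.650%). Per kb of span, HNRNPA2B1 held 451 reads, HNRNPA1 211, HNRNPDL 147, HNRNPA3 89.4, HNRNPD 57.7, HNRNPA0 38.8 and HNRNPAB 30.0. Reads of HNRNPA1 are those of clusters under its own identifier, and 42 other same-strand clusters within its span carry that of an overlapping gene. With 4355 reads in all, HNRNPA2B1 ranked 16th among all genes of the replicate. HNRNPA1 (1227 reads), HNRNPD (1157), HNRNPA3 (907) and HNRNPDL (657) lay at percentiles of 98.4 or higher, whereas HNRNPAB (143 reads) and HNRNPA0 (63 reads) lay at percentiles 85.3 and 66.8.

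The positions of clusters were shared between the replicates more often in these genes than over the whole list. Of the 185 replicate 2 clusters, 154 overlapped a replicate 1 cluster, which is 83.2% (95% interval 77.1 to 88.3%), against 31.9% of all replicate 2 clusters. These genes are deeply covered, and the part of depth in this share was not tested. The share was 100% in HNRNPDL, 96.4% in HNRNPD, 94.3% in HNRNPA1, 87.5% in HNRNPAB, 74.3% in HNRNPA3, 70.9% in HNRNPA2B1 and 60% (3 of 5 clusters) in HNRNPA0. On the opposite strand of the spans, replicate 1 had 0 clusters.

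In replicate 1, the median log2 fold of the 234 clusters was 2.19, against 1.51 over all clusters. A log2 fold of at least 3 with a −log10 p of at least 3 was reached by 73 of them, or 31.2% (95% interval 25.3 to 37.6%), against 5.35% of all clusters. The sets are unlike, since only clusters of the members had to lie within spans of replicate 2 clusters. Most of these genes are also deeply covered, and the part of depth in this share was not tested. The share was 50.0% in HNRNPA2B1 (24 of 48), 33.3% in HNRNPA1 (18 of 54), 28.6% in HNRNPDL (12 of 42) and in HNRNPAB (4 of 14), 21.6% in HNRNPD (8 of 37) and 21.2% in HNRNPA3 (7 of 33). The exact intervals of these 6 genes overlap one another, that of HNRNPA2B1 reaching from 35.2 to 64.8% and that of HNRNPA3 from 8.98 to 38.9%. HNRNPA0 had 0 of 6, which at this number of clusters allows a share of up to 45.9%. Log2 folds below 0, meaning fewer reads than in the input, were found for 20 clusters (8.55%, 95% interval 5.30 to 12.9%), against 11.4% of all clusters, and 11 of the 20 lay in HNRNPA1.

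**Figure D1:**
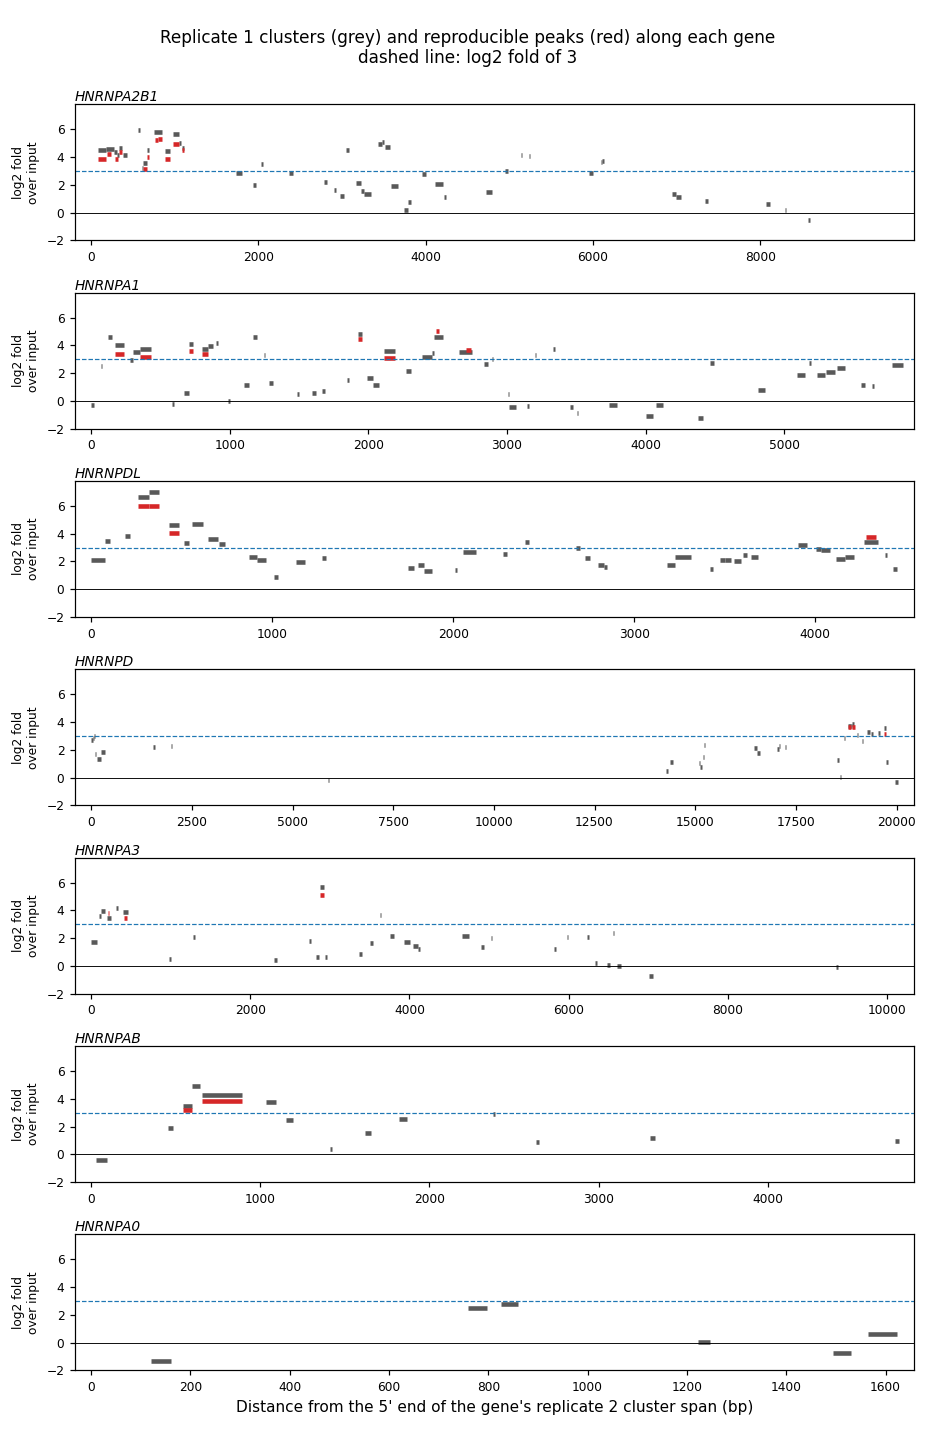
Log2 fold over the input (y axis) of each replicate 1 cluster (grey bars, as wide as the cluster) and of each reproducible peak over both replicates (red bars), against the distance in bp from the 5’ end of the span of the gene's replicate 2 clusters (x axis), for the 7 genes. All 11 HNRNPA2B1 peaks sit in a window of 1026 bp near the 5’ end, all 3 HNRNPD peaks sit near the 3’ end, and HNRNPA0 has no cluster above the dashed line at 3.

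HNRNPA2B1, which encodes the A2 and B1 splicing regulators, held the most peaks and the most reads of the family. Its 11 peaks lay on the - strand of chromosome 7 between 26239147 and 26240172 (hg19), a window of 1026 bp that makes up 10.6% of the span of 9647 bp. All peak middles were within 1098.5 bp of the 5’ end of the span. The study annotated the peak nearest the 5’ end mostly to a 5’ splice site and all others to proximal or distal introns. The highest joint log2 folds were at adjoining peaks, 5.30 at 26239418 to 26239458 and 5.24 at 26239459 to 26239493, and both were covered by 1 replicate 1 cluster with a log2 fold of 5.80 and a −log10 p of 81.2. Replicate 2 had clusters of exactly these intervals, with 91 and 89 reads. The lowest joint log2 fold was 3.15, at 26239595 to 26239634, where replicate 1 gave 3.60 and replicate 2 a cluster of 98 reads that it shared with the adjoining peak. Over all 11 peaks, the replicate 2 cluster with the largest overlap held between 58 and 172 reads.

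Within the same window all 15 replicate 1 clusters passed both limits, with log2 folds between 3.21 and 5.93. For the clusters under the peaks this is in part what a peak of both replicates holds by construction. The −log10 p reached its limit of 400 at 2 of them, at 26239211 to 26239280 and at 26239981 to 26240077, out of 133 such clusters in the whole replicate. The highest log2 fold of the gene, 5.93 at 26239675 to 26239704, had no replicate 2 cluster over it. Outside the window the median log2 fold of the other 33 clusters was 2.04, with 9 past both limits.

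Reads and enrichment were distributed differently along HNRNPA2B1. With the span divided into 3 equal parts, the 5’ part held 36.1% of the replicate 2 reads, the middle part 20.2% and the 3’ part 43.7%. The median log2 fold in replicate 1 was lower from part to part, going from 4.25 (24 clusters) to 2.80 (18 clusters) and 0.72 (6 clusters). The 3’ part held 23 replicate 2 clusters, 13 of which, with 840 reads, had no replicate 1 cluster at all. The cluster with the most reads of the gene, 185 at 26231877 to 26231975, lay there too, and the replicate 1 cluster over it had a log2 fold of 0.17 and a −log10 p of 0.267.

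HNRNPA1 encodes the best studied member, a repressor of splice sites that binds exonic and intronic silencers. Its 8 peaks lay on the + strand of chromosome 12 between 54674759 and 54677329, a window of 2571 bp or 44.2% of the span, with 4 peaks in the 5’ part of the span and 4 in the middle part. The highest joint log2 fold was 5.02 at 54677076 to 54677100, with 4.62 and a −log10 p of 24.2 in the replicate 1 cluster over it and 25 reads in replicate 2. The lowest was 3.10 at 54676698 to 54676777, with 3.56 in replicate 1 and 34 reads. The highest log2 fold in replicate 1, 4.83 with 22 reads in replicate 2, was at the peak at 54676513 to 54676543. The study annotated most of the peaks to 5’ splice sites or proximal introns, and those nearest the 5’ end also reach the 5’-UTR.

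Most of the HNRNPA1 clusters with a log2 fold below 0 lay outside the window of the peaks. In the window of the peaks, 15 of 28 replicate 1 clusters passed both limits, and the log2 folds of the 28 ranged from -0.26 to 4.83, with 2 of them below 0. Of the 26 clusters outside it, 3 passed and 9 had a log2 fold below 0. The window was drawn around the peaks, so the clusters under them pass in part by construction. The 3’ part of the span held 13 replicate 1 clusters with log2 folds from -1.25 to 2.73 and none of the peaks. The cluster with the most reads in replicate 2, 84 at 54677601 to 54677659, had a log2 fold of -0.45 in replicate 1, below the input. All 35 replicate 2 clusters of HNRNPA1 overlapped a cluster listed under ENSG00000258344, a long noncoding RNA gene on the same strand that holds 48 clusters in all, so that reads of the pair cannot be told apart.

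HNRNPDL, an hnRNP D-like protein which also binds AU-rich elements, had the pair of peaks with the highest joint log2 folds of the family. The median log2 fold over its replicate 1 clusters was 2.31, below the 3.08 of HNRNPA2B1. The HNRNPDL peaks at 83350090 to 83350149 and 83350150 to 83350207 on the - strand of chromosome 4 adjoin each other and had joint log2 folds of 6.001 and 5.98. Replicate 1 gave 7.04 and 6.68 for the same intervals, and replicate 2 held a cluster of 19 and 22 reads over them, fewer than the 30 reads of its median cluster. The other peaks, at 83349982 to 83350037 and 83346132 to 83346183, had joint log2 folds of 4.05 and 3.74, with 4.62 and 3.43 in replicate 1 and 30 and 34 reads in replicate 2. Of the 4 peaks, 3 had their middle within 457 bp of the 5’ end of the span, and the remaining one lay at 96.7% of its length. In the study's annotation of peaks by region, all of them fall in proximal introns, and the one nearest the 3’ end also reaches a 3’ splice site.

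Between the peaks of HNRNPDL, 6 further replicate 1 clusters passed both limits, and the highest, at 83349849 to 83349909, had a log2 fold of 4.71 without a replicate 2 cluster. The log2 folds of its 42 replicate 1 clusters ranged from 0.90 to 7.04, whereas each of the other 6 genes had 1 or more clusters under 0. The median log2 fold was 3.36 in the 5’ part, 1.75 in the middle part and 2.30 in the 3’ part of the span. The middle part held 1 cluster past both limits, against 9 in the 5’ part and 2 in the 3’ part. The cluster with the most reads, 78 at 83346729 to 83346826, had a log2 fold of 2.32 in replicate 1 and was not part of a peak.

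HNRNPD encodes AUF1, which binds AU-rich elements and controls mRNA decay. Unlike those of the other genes, its 3 peaks all lay at the 3’ end of the span, between 94.0% and 98.4% of its length. The peak at 83276200 to 83276275 on the - strand of chromosome 4 had a joint log2 fold of 3.65, a replicate 1 log2 fold of 3.70 and a replicate 2 cluster of the same interval with 53 reads. The peak at 83276103 to 83276162 gave 3.67, 3.85 and 48 reads, and the one at 83275326 to 83275366 gave 3.11, 3.56 and 34 reads. The study annotated them to the 3’-UTR or to a 3’ splice site. In their window of 950 bp, 8 of 10 replicate 1 clusters passed both limits, and outside it 0 of 27 did. The window was drawn around the peaks, so part of this contrast holds by construction.

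The 5’ end of HNRNPD held more reads than its 3’ peaks without reaching the limit for the fold. The 3’ part of the span as a whole nevertheless held 70.6% of the replicate 2 reads, against 29.4% in the 5’ part. Replicate 2 had 122 reads at 83294970 to 83295020, the most of the gene, and the replicate 1 cluster with the largest overlap had a log2 fold of 2.85 with a −log10 p of 40.8. The highest log2 fold in the 5’ part was 2.99. Between the 5’ and the 3’ groups, replicate 2 had a gap of 13826 bp without a cluster, and the middle part of the span had no cluster in either replicate.

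HNRNPA3, a close relative of HNRNPA1 and HNRNPA2B1, had 3 peaks on the + strand of chromosome 2. The peak at 178080408 to 178080458 had a joint log2 fold of 5.13, with 5.68 in replicate 1 and 13 reads in replicate 2, and was annotated by the study to splice sites of both kinds. The other peaks lay close to the 5’ end, at 178077739 to 178077749 with a joint log2 fold of 3.79, 3.48 in replicate 1 and 15 reads, and at 178077944 to 178077982 with 3.48, 3.86 and 23 reads. The study assigned those to the neighborhood of the microRNA gene MIR4444-1 rather than to HNRNPA3, although replicate 2 has clusters of the same intervals under the identifier of HNRNPA3. The 3’ part of the span held 22.9% of the replicate 2 reads and 2 replicate 1 clusters, with log2 folds of -0.70 and -0.12. Its cluster with the most reads, 45 at 178087206 to 178087277, had no replicate 1 cluster.

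HNRNPAB, which encodes a CArG box and RNA-binding protein of the family, reached 2 peaks with the fewest reads of the genes that had any. The peak at 177632234 to 177632470 on the + strand of chromosome 5 is the longest of the family with 237 bp, against a range of 11 to 237 bp and a median of 50 bp. It had a joint log2 fold of 3.85, with 4.24 in replicate 1 and a replicate 2 cluster of 17 reads. The peak at 177632123 to 177632176 gave 3.20, 3.51 and 14 reads. Between them, replicate 1 had a cluster with a log2 fold of 4.89 and a −log10 p of 7.42 at 177632177 to 177632221, where replicate 2 had none. The study annotated this pair of peaks to a 5’ splice site and the proximal intron. The cluster with the most reads, 46 at 177631614 to 177631733, had a log2 fold of -0.45 in replicate 1.

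HNRNPA0, the intronless member, which binds AU-rich mRNAs in the stress response, had 5 replicate 2 clusters of 5 to 25 reads. Its 6 replicate 1 clusters had log2 folds from -1.32 to 2.77 with a median of 0.31. The highest, at 137089163 to 137089195 on the - strand of chromosome 5, had a −log10 p of 1.25 and no replicate 2 cluster, while the cluster with the most reads, 25 at 137088397 to 137088455, had a log2 fold of 0.60. With 63 reads, a peak may not have been detectable in this gene at this depth.

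**Figure D2:**
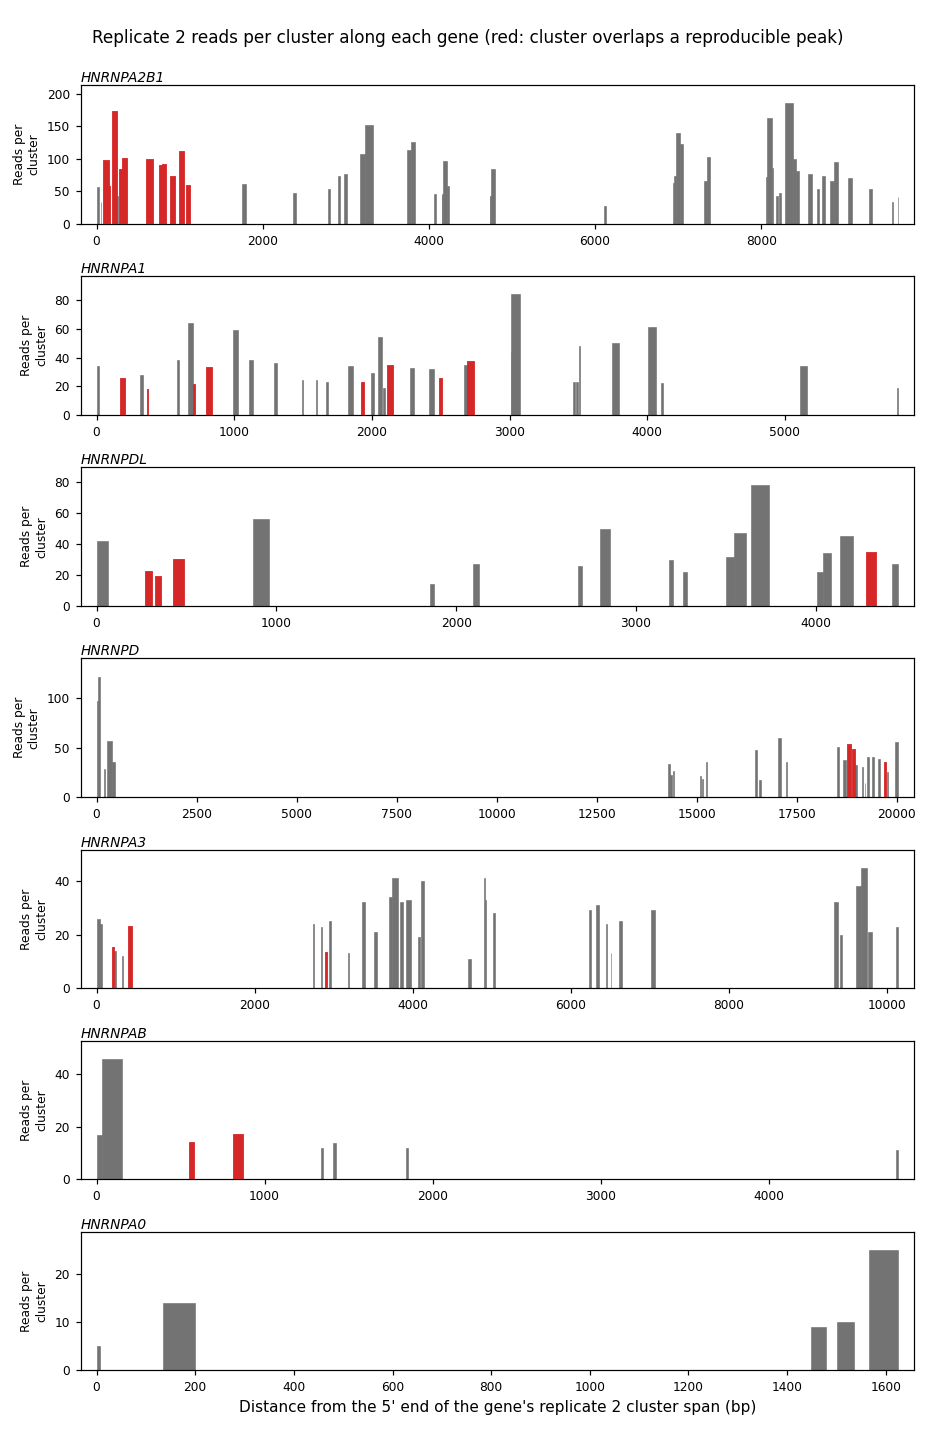
Reads per replicate 2 cluster (y axis, a scale of its own in each panel) against the distance in bp from the 5’ end of the span (x axis), with clusters that overlap a reproducible peak in red and others in grey. The tallest bar of every gene is grey, from 185 reads in HNRNPA2B1 to 25 in HNRNPA0.

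In the 6 genes with a peak, the most reads lay outside the peaks. The cluster with the most reads overlapped a reproducible peak in 0 of the 6. Among all genes with a peak and at least 5 replicate 2 clusters it did so in 41.3%. The 6 genes had 8 to 55 replicate 2 clusters each, and the number of clusters was not matched in this comparison. With HNRNPA0 included, the cluster with the most reads had a replicate 1 cluster over it in 6 of the 7 genes. The log2 folds there were 2.85 in HNRNPD, 2.32 in HNRNPDL, 0.60 in HNRNPA0, 0.17 in HNRNPA2B1 and -0.45 in both HNRNPA1 and HNRNPAB. Clusters under the peaks held 23.5% of the reads in HNRNPA2B1, 21.7% in HNRNPAB, 17.5% in HNRNPA1, 16.0% in HNRNPDL, 11.7% in HNRNPD and 5.62% in HNRNPA3.

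Along the spans, 23 of the 31 peaks had their middle in the 5’ part, which is 74.2% (95% interval 55.4 to 88.1%), against 40.7% of the 881 pairs of a peak and a gene with at least 5 replicate 2 clusters. HNRNPA2B1 alone provided 11 of the 23, and the other peaks of the 5’ part lay in HNRNPA1 (4), HNRNPA3 (3), HNRNPDL (3) and HNRNPAB (2). The 3’ part held 4 peaks, 3 of HNRNPD and 1 of HNRNPDL, against 30.4% of all such pairs. Merging adjoining peaks left 28 regions.

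**Figure D3:**
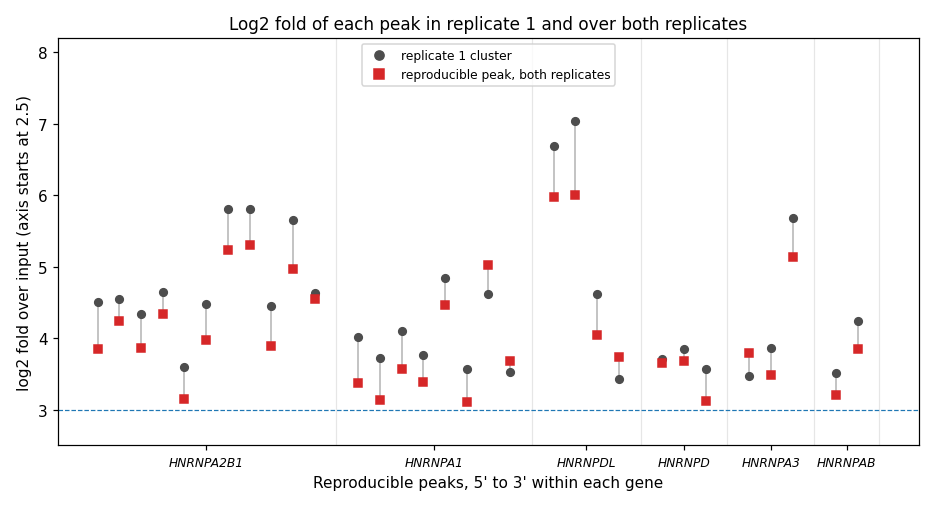
Log2 fold over the input (y axis, starting at 2.5) of each of the 31 reproducible peaks, ordered from 5’ to 3’ within each gene (x axis), for the overlapping replicate 1 cluster (dark circles) and for both replicates together (red squares). Replicate 1 lies above the joint value at 27 of the 31 peaks, and the highest pairs are the adjoining peaks of HNRNPDL.

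At the 31 peaks, the log2 fold in replicate 1 exceeded the joint value at 27, by a median of 0.45 over all peaks and with a range of differences from -0.39 at a HNRNPA1 peak to 1.03 at a HNRNPDL peak. The joint value includes replicate 1, so the pair is a description and not an independent repeat. At all 31 peaks the replicate 1 cluster with the largest overlap passed both limits, at 20 peaks it had the same interval as the peak, and 9 peaks had a replicate 2 cluster of the same interval. The median joint log2 fold was 3.85, against 3.80 over all 866 peaks, so the typical fold of a peak lay close to that of the whole list.

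Many stretches enriched in replicate 1 had no cluster in replicate 2. Of the 73 replicate 1 clusters past both limits this was so for 32, or 43.8% (95% interval 32.2 to 55.9%), against 62.1% of all such clusters. Clusters of the members were taken only within spans of replicate 2 clusters and those of the whole list were not, so the sets are unlike. The part of depth in this share was not tested. The 32 clusters numbered 10 in HNRNPA2B1, 8 each in HNRNPA1 and HNRNPDL, 3 in HNRNPA3, 2 in HNRNPAB and 1 in HNRNPD. In HNRNPA2B1 they included a group at 26236688 to 26236746, 26236758 to 26236785 and 26236786 to 26236824, with log2 folds of 4.73, 5.10 and 4.94 and −log10 p of 36.6, 25.4 and 29.9, values within the range of those under the reproducible peaks.

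Among the other hnRNP genes examined, 10 of 18 carried a peak, with 26 peaks in all, and those with the most were HNRNPH1, HNRNPU and PTBP1 with 5 peaks each. HNRNPH1 encodes a protein that binds G-rich elements, and its peaks had joint log2 folds from 3.25 to 4.69. HNRNPU encodes a scaffold protein of the nuclear matrix, and its peaks ranged from 3.03 to 5.47. PTBP1 encodes a repressor that binds pyrimidine tracts, with peaks from 3.82 to 5.01. The share of replicate 1 clusters past both limits was 20.98% over the 18 genes, against 31.2% in the A, B and D family, 17.4% in the SR genes and 3.92% (4 of 102) in the relatives with a pair of RNA-binding domains, where all clusters gave 5.35%. Of 14 SR and TRA2 genes, which encode splicing activators, 12 had replicate 2 clusters and 6 carried a peak, with 21 peaks in all, of which SRSF6 had 8 (3.25 to 4.41) and SRSF7 had 5 (3.16 to 4.33). Among the relatives with a pair of RNA-binding domains, DAZAP1 had 2 peaks (3.76 to 4.59), MSI2 and TARDBP had 0, and MSI1 had no replicate 2 cluster. The lists differed in reads as well, with a median of 907 replicate 2 reads per gene in the A, B and D family, 435 in the relatives, 359 in the other hnRNP genes and 296 in the SR genes, and differences in peak number between the lists were not tested.

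**Figure D4:**
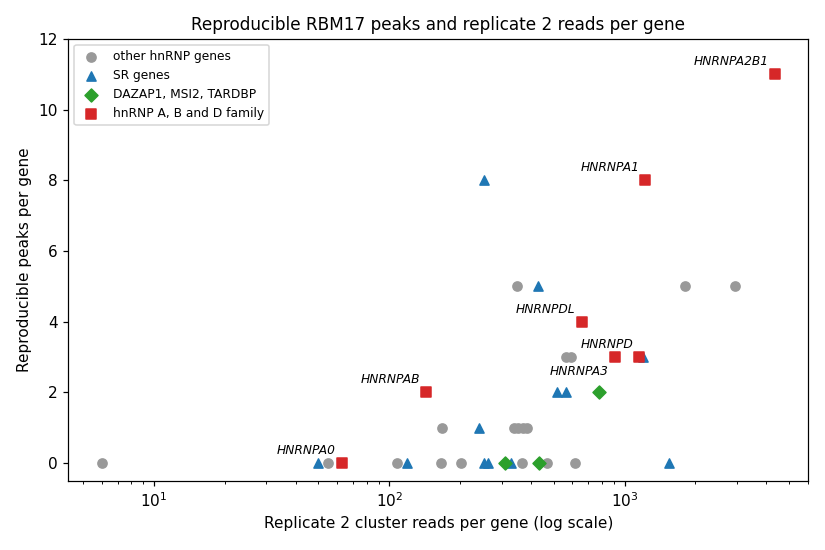
Number of reproducible peaks per gene (y axis) against the replicate 2 cluster reads per gene (x axis, log scale) for the A, B and D family (red squares, named), other hnRNP genes (grey circles), SR genes (blue triangles) and DAZAP1, MSI2 and TARDBP (green diamonds). HNRNPA2B1 is highest on both axes with 11 peaks and 4355 reads, and SRSF6 reaches 8 peaks with 252 reads.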

How the data were processed

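RBM17 eCLIP of K562 cells was analysed from the authors' deposited lists, made with an eCLIP pipeline (version 0.4.0) that used cutadapt and STAR. For replicate 1 clusters, and for reproducible peaks over both replicates, the authors deposited enrichment against the input as −log10 p and as log2 fold. For replicate 2 they deposited the peak caller's p-value, with the gene and its reads in the cluster name (other text fields). Replicate numbers follow the sample descriptions, and titles number them 2 and 3. The build is not given in the sources used here. Positions on chromosome 1 reach 249211903, past the hg38 length of 248956422, and are treated as hg19.

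Identifiers came from GENCODE v44. Overlaps needed 1 bp on the same strand. Spans run from the first to the last replicate 2 cluster of a gene. Regions of peaks are the study's. Python 3.11.15, pandas 2.3.3, numpy 2.4.6, scipy 1.17.1 and matplotlib 3.10.9 were used, and overlaps were tested on simulated intervals. Members and lists were chosen with earlier results of these data known. All members were named, with the peaks of highest and lowest joint fold, all peaks of genes with 5 or fewer, and the clusters of most reads or highest fold. Of the other hnRNP and SR lists, the 2 genes with the most peaks were named, with PTBP1 for a tie. The relatives without a peak and the cell type markers were named outside this rule, after their values were seen. Alternatives were stricter thresholds, other overlap and assignment rules, and leaving out a replicate. The input itself was not analysed here. Part of the cell type marker lists is not reported here.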

Additional observations from a re-analysis of the deposited data

How the results depend on the processing

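The number of members with a peak stayed between 4 and 7 under all alternatives, 4 at a joint log2 fold of at least 4 and 7 without replicate 1. The number of peaks fell from 31 to 12 at a joint log2 fold of at least 4, with 6 left in HNRNPA2B1, 3 in HNRNPDL, 2 in HNRNPA1 and 1 in HNRNPA3, and none in HNRNPAB or HNRNPD. Leaving out a replicate gave 73 to 148 stretches, 148 without replicate 1 (replicate 2 clusters with a caller p of at most 1e-10, 1 of them in HNRNPA0) and 73 without replicate 2 (replicate 1 clusters past both limits). The former also sets no limit on the fold, so the cause of the higher number was not tested. When a peak had to be covered for 50% of its length in each replicate, 26 were left and none in HNRNPAB. Replicate 1 clusters past both limits fell from 73 to 34 at a log2 fold of at least 4, and to 41 when they also had to overlap a replicate 2 cluster of the gene. On the opposite strand, 0 replicate 2 clusters of the members overlapped a replicate 1 cluster. Reads were 8509 under each way of counting except for clusters with a caller p of at most 1e-10, which held 7879. No paired analysis was possible because the series has 1 group of eCLIP replicates and an input without a replicate of its own. Depth limits HNRNPA0 and HNRNPAB most, which had 63 and 143 reads.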

Other observations

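Processed copies of the family held few reads in called clusters. How reads that match both a copy and its parent gene were assigned was not examined. HNRNPA1P1 was the single copy, among pseudogenes and retrogenes named after the members, with clusters in replicate 2, which were 2 clusters with 8 reads in all, both overlapped by a replicate 1 cluster and without a reproducible peak. The first introns of the canonical transcripts in hg38 differed widely in length and in G content. That of HNRNPA2B1 is 2839 bp long with 23.2% G, that of HNRNPA3 2667 bp with 27.2%, that of HNRNPD 1861 bp with 20.96%, that of HNRNPDL 801 bp with 29.8%, that of HNRNPA1 563 bp with 21.8% and that of HNRNPAB 74 bp with 48.6%. The median over the first introns of 18916 protein-coding genes was 24.1%, and 0.497% of them were at least as rich in G as that of HNRNPAB. No peak was placed on these introns.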
